A study of Xenopus laevis with 90 samples.

Results

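Window depletion of H3K4me3 at 5.5 hours post fertilisation (hpf) in Xenopus laevis embryos was followed in 12 of the 90 libraries of the series, namely the 6 treated+IAA and the 6 control+IAA libraries labelled 256c+1hr. Each library was made from a pool of 3 sibling embryos, and each of 2 frogs gave 3 pools per group, so the p-values measure the spread between pools of siblings. Treated+IAA embryos had received 11 ng mRNA for Kdm5b-wt (an H3K4 demethylase), 345 pg mRNA for H3.3-K4M (a histone H3.3 whose lysine 4 is replaced by methionine) and 5 ng TIR1 mRNA. Control+IAA embryos had received 4 ng mRNA for Kdm5b-ci, the catalytically inactive form, 345 pg mRNA for unmutated H3.3 (H3.3-wt) and TIR1 mRNA at the same 5 ng. Both groups were moved to auxin (IAA, 500 µM) at 4.5 hpf, when embryos have 256 cells, and were collected 1 hour later. The injected proteins carried a degron and an HA tag, TIR1 is the plant auxin receptor that marks degron proteins for destruction, and the mRNA amounts had been chosen to give equal protein levels. The design thus aims to confine the depletion to the time before auxin, hence window depletion. The study reports loss of the injected proteins and recovery of H3K4me3 at a later stage. Whether either was complete 1 hour after auxin, when these pools were collected, was not tested here. Embryos given the same mRNAs but no auxin (treated-IAA and control-IAA, the persistent depletion) and uninjected wild-type embryos without auxin are used as further levels. A model limit is that wild-type embryos differ from both groups in injection as well as in auxin, and that the Kdm5b construct is a mouse sequence.

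Trimethylation of lysine 4 on histone H3 marks the promoters of active genes. It is written by SET1 and MLL complexes and removed by KDM5 demethylases, and it is found at promoters in gametes and embryos. Frog embryos divide rapidly on maternal RNA until the midblastula, when zygotic genome activation begins. Mix-type, Nodal, Sox17 and Siamois genes are among the earliest to be transcribed there, under the control of maternal VegT, β-catenin and Pou5f3/Sox3 proteins. The embryos described here were collected at the onset of this activation. Levels are given as TPM, each transcript's length-corrected share of a library. The depth of a library cannot be read from TPM, and the counting error behind a low value is unknown. Changes are differences of mean log2(TPM + 1), treated+IAA minus control+IAA, and understate the change of low genes. Each frog was fitted on its own with limma over its 45 libraries and all genes with at least 1 TPM in 3 libraries. A gene is called when its Benjamini-Hochberg adjusted p is below 0.05.

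The libraries differed in their share of ribosomal RNA and in their level of sequence carried by the injected mRNAs. Ribosomal RNA genes held 13.9 to 22.9% of the TPM in treated+IAA and 11.4 to 11.9% in control+IAA libraries of frog 1, against 20.6 to 37.4% in its wild-type libraries and 2.37 to 4.09% in all 6 libraries of frog 2. The injected mRNAs carried Xenopus globin untranslated regions, and the hemoglobin gene hbg1.L, at most 0.547 TPM in wild-type embryos, was abundant in all injected ones. It stood at 14739, 24220.2 and 19968 TPM in treated+IAA and 13695, 10501 and 7594 TPM in control+IAA libraries of frog 1. In frog 2 it stood at 13050.0, 15025 and 11108 TPM in treated+IAA and 2259.6, 2264 and 11943 TPM in control+IAA libraries. Control+IAA library 2.3 thus held about as much as the treated+IAA pools, and the other control+IAA libraries of frog 2 far less. The control-IAA libraries of frog 2, given the same mRNAs as control+IAA, held 11745, 6765 and 9526 TPM. Library 2.3 thus lay nearer to them than its group mates did. The treated-minus-control difference in hbg1.L had p = 0.10 in frog 1 and p = 0.20 in frog 2 (exact two-sided permutation test, 3 against 3, smallest possible p 0.10). Kdm5b mRNA was injected at 11 ng in treated+IAA and 4 ng in control+IAA embryos. Injected amount and treatment thus cannot be told apart in any comparison of these groups. Library 2.3 also differed from its group mates in several zygotic transcripts given below, and frog 2 results that rest on it are given with and without it. Leaving it out was chosen with these values in view, so calls made without it are descriptions. Maternal transcripts that mark an early embryo (zar1, vegt, gdf1, wnt11b, ctnnb1, sox3, 10 gene copies) had at least 1 TPM in a library, their means running from 2.23 TPM for zar1.L to 280.4 TPM for sox3.L in frog 1. Of the markers of muscle, neurons, liver, cement gland and pancreas, 19 of 23 copies in frog 1 and 18 of 22 in frog 2 were below 1 TPM in all 6 libraries. The highest of these markers was the neuron marker neurog2.S, with means of 9.96 TPM in frog 1 and 12.0 TPM in frog 2.

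Genes whose transcripts accumulate after activation were set apart by wild-type embryos alone: 1010 genes were called higher at 7.5 than at 5.5 hpf in both frogs by at least 1 on the log2(TPM + 1) scale. Their mean log2(TPM + 1) at 5.5 hpf was 1.26, 1.15 and 1.33 in the treated+IAA libraries of frog 1, against 1.59, 1.62 and 1.65 in its control+IAA libraries. The groups did not overlap. It was 1.13 to 1.17 in treated-IAA, 1.25 to 1.28 in control-IAA and 1.07 to 1.18 in wild-type libraries of the same frog. Choosing genes that rise from these wild-type libraries favours a low wild-type mean. Among the injected groups of frog 1, the control+IAA pools lay above all others. After removal of ribosomal RNA from the total, the values were 1.28 to 1.41 in treated+IAA and 1.67 to 1.74 in control+IAA libraries. They were then 1.25 to 1.29 in treated-IAA, 1.37 to 1.42 in control-IAA and 1.25 to 1.34 in wild-type libraries. In frog 2 the mean was 1.06, 1.04 and 1.17 in treated+IAA and 1.09, 1.14 and 1.1 in control+IAA libraries, with overlap, and 1.08 to 1.11 in wild-type libraries.

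**Figure D1:**
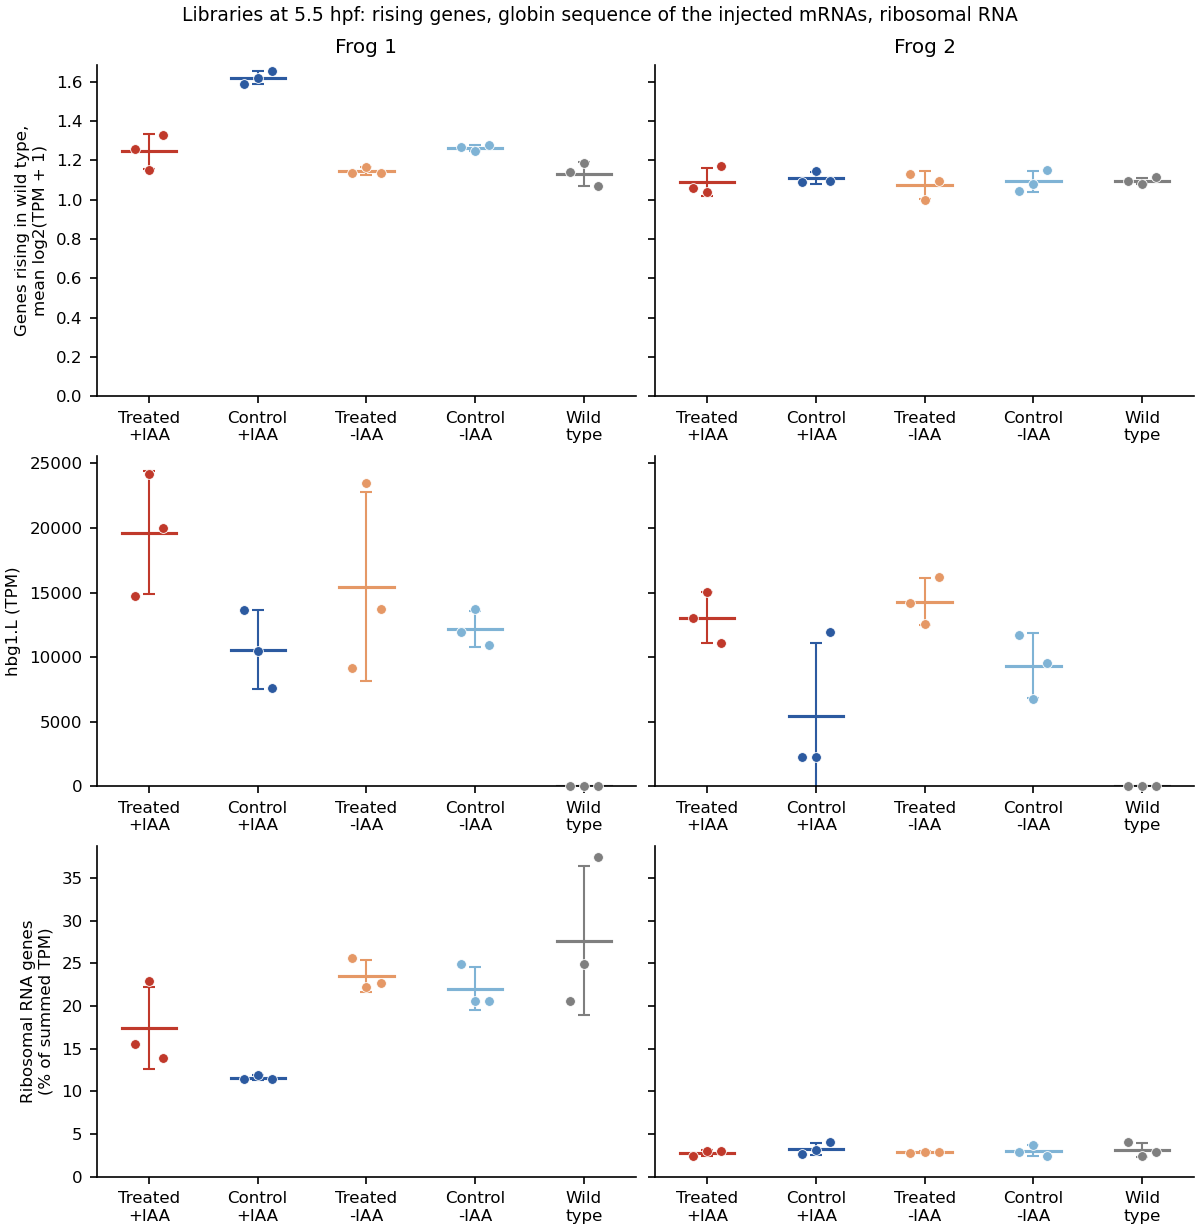
Mean log2(TPM + 1) of the 1010 genes rising in wild type, TPM of hbg1.L and the percent of TPM in ribosomal RNA genes for each library at 5.5 hpf, by group (x axis), frog 1 left and frog 2 right; points are pools, bars mean and SD (n = 3). The control+IAA pools of frog 1 lie at 1.59 to 1.65 for the rising genes, above every other library, and control+IAA library 2.3 has 11943 TPM of hbg1.L where its group mates have 2259.6 and 2264 TPM.

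In frog 1, 80 of 20891 tested genes were lower in treated+IAA than in control+IAA embryos (0.383% of genes tested) and 2 were higher (0.00957%). In frog 2, none of 20277 tested genes was lower and 3 were higher (0.0148%) by the same limma test; at an unadjusted p below 0.05, 207 were lower (1.02%) and 725 higher (3.58%). The corresponding unadjusted counts in frog 1 were 2818 lower (13.5%) and 198 higher (0.948%). After median-ratio scaling the balance turned in both frogs, at the same unadjusted p: frog 1 then had 991 genes lower against 1208 higher, and frog 2 had 522 lower against 426 higher. Over all tested genes the change had a median of -0.14 in frog 1 and 0.06 in frog 2, and a change in frog 1 is to be read relative to its median. In whole embryos, fewer cells of a type and less RNA per cell cannot be told apart. Scaling by median ratios moved the median in frog 1 to 0.01 and its calls to 50 lower and 11 higher, with 47 of the 80 genes still called lower; rescaling without ribosomal RNA gave 66 lower and 7 higher, with 65 of the 80. Without control+IAA library 2.3, frog 2 gave 11 genes lower (0.0543%) and 8 higher (0.0395%). The frog 1 count of 82 called genes became 52 without treated+IAA library 1.1, 38 without treated+IAA library 1.2, 51 without control+IAA library 1.1 and 45 without control+IAA library 1.3, and 43 when the 6 libraries were fitted alone.

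**Figure D2:**
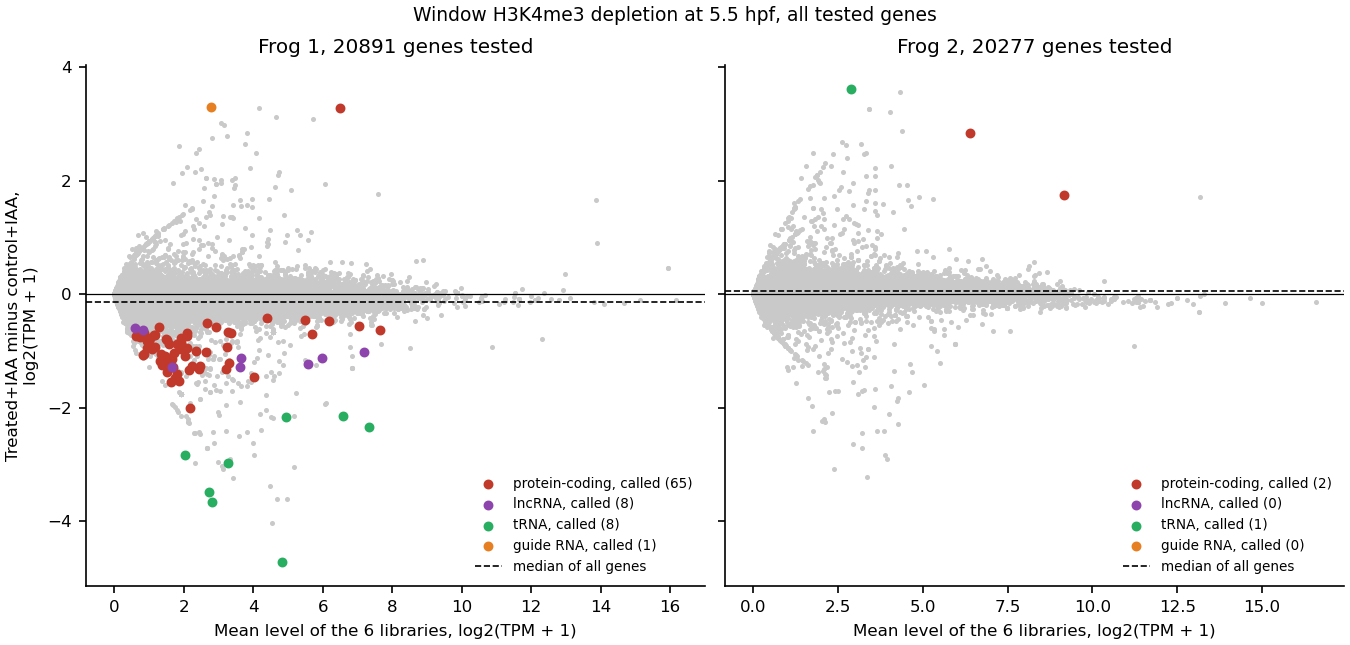
Change of each tested gene, treated+IAA minus control+IAA on the log2(TPM + 1) scale (y axis), against its mean level in the 6 libraries (x axis), for frog 1 (left, 20891 genes) and frog 2 (right, 20277 genes). Coloured points passed the adjusted p threshold, 80 lower and 2 higher in frog 1 and 3 higher in frog 2; the dashed line is the median of all genes, -0.14 and 0.06.

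The 80 genes lower in frog 1 were 64 protein-coding genes, 8 long non-coding RNAs (lncRNAs) and 8 tRNA names. Of them, 65 (81.3%) belonged to the 1010 genes that rise in wild type, a class that made up 4.83% of the genes tested, and none belonged to the 500 that fall. Conversely, 6.44% of the rising genes were called lower. Treated+IAA libraries lay below control+IAA libraries without overlap for all 80, as they did for 17.1% of all genes tested, a pattern that the choice of the genes favours. Most were low: the median gene averaged 1.12 TPM in treated+IAA, 4.15 TPM in control+IAA and 1.53 TPM in wild-type embryos, and 56 had a control+IAA mean below 10 TPM. All 3 control+IAA libraries exceeded all 3 wild-type libraries for 70 of the 80, against 46.8% of genes tested. All 3 treated+IAA libraries were below all 3 wild-type libraries for 19 of the 80 and above all 3 for 19 others, against 1.15% and 20.6% of genes tested. Choosing genes by treated+IAA below control+IAA favours high control+IAA and low treated+IAA libraries, so these counts are descriptions. The protein-coding members were compact, with a median genomic span of 3.08 kb against 20.0 kb for all tested protein-coding genes and 6.26 kb for the rising ones.

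Mix-type homeodomain factors, which specify mesendoderm, had 7 members called lower in frog 1. mix1.S (chromosome 5S, 12072933 to 12075865, Xenopus_laevis_v10.1) had 0.528, 0.349 and 0.893 TPM in treated+IAA, against 4.34, 3.04 and 3.45 TPM in control+IAA and 1.87, 1.43 and 2.01 TPM in wild-type libraries of frog 1. All treated+IAA pools were below all others, and the change was -1.54 ± 0.18 (SE), adjusted p = 3.1e-06. Its homeolog mix1.L changed by -1.19 ± 0.18 (SE), adjusted p = 3.5e-04. bix1.1.L had 1.12, 0.675 and 0.566 TPM in treated+IAA and 3.39, 3.88 and 4.61 TPM in control+IAA libraries, with wild type at 4.04, 2.64 and 2.72 TPM, so that treated+IAA embryos lay below both (-1.48 ± 0.17 (SE), adjusted p = 2.2e-06). The same call was made for bix1.3.L (-1.25), bix1.3.S (-0.94), bix1.2.S (-0.93) and mixer.L (-0.74). These 7 genes lie in a pair of homeologous clusters, bix1.3.L, bix1.1.L, mix1.L and mixer.L on chromosome 5L (17988780 to 18021759) and mix1.S, bix1.2.S and bix1.3.S on chromosome 5S (12072933 to 12103225). Copies of this family are alike in sequence, and how the authors' pseudoalignment divided reads among them was not tested. The copies bix1.1.S (-0.55, adjusted p = 0.29) and mixer.S (-0.79, adjusted p = 0.12) were not called in frog 1. In frog 2 none of these genes was called, and their directions were mixed: mixer.L changed by 0.62 with all treated+IAA above all control+IAA libraries, bix1.3.S by 0.14 and mix1.L by 0.01, while bix1.3.L changed by -0.40 without overlap. There mix1.S had 0.290, 0.476 and 0.354 TPM in treated+IAA and 0.669, 0.834 and 0.653 TPM in control+IAA libraries, which did not overlap (-0.32 ± 0.19, limma adjusted p = 0.93).

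Sox17 factors, which act below Mix and VegT in endoderm, were lower in frog 1 as well. sox17b.1.S had 2.35, 1.40 and 2.64 TPM in treated+IAA and 7.53, 5.2 and 7.53 TPM in control+IAA libraries of frog 1, with wild type at 1.86, 1.63 and 1.57 TPM. The control+IAA pools were above all others and the treated+IAA pools overlapped wild type (-1.32 ± 0.15 (SE), adjusted p = 3.0e-06). sox17b.1.L (-1.01) and sox17a.L (-0.80) were called too, while sox17a.S, at -0.86 ± 0.22, was not (limma adjusted p = 0.080). In frog 2 the sox17b.1.L order was reversed, with 3.39, 2.79 and 3.2 TPM in treated+IAA and 2.15, 2.22 and 2.06 TPM in control+IAA libraries (0.39 ± 0.14, adjusted p = 0.93, not called). The early Nodal ligands nodal5.L and nodal6.L lie near each other on chromosome 3L (140237716 to 140264258). nodal6.L had 1.21, 0.888 and 2.49 TPM in treated+IAA and 7.56, 4.43 and 4.01 TPM in control+IAA libraries of frog 1, with no overlap and with wild type at 1.82, 2.47 and 1.51 TPM (-1.33 ± 0.26 (SE), adjusted p = 0.0082). nodal5.L changed by -0.97 (adjusted p = 0.010). In frog 2 the nodal6.L levels were 1.09, 1.61 and 1.09 TPM in treated+IAA and 1.18, 0.98 and 0.879 TPM in control+IAA libraries, which overlapped. foxh1.2.L, a forkhead factor of the family that reads Nodal signals, and gdf3.S, a TGF-β ligand, were lower in frog 1 as well (-0.84 and -0.82). In frog 2, gdf3.S was not called (-0.43 ± 0.16, adjusted p = 0.93).

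Among genes of the dorsoventral axis, sia1.L, ventx2.1.S, ventx2.2.S and not.S were called lower in frog 1, while sia2.S (-0.19), gsc.L (0.08), nog.L (0.01) and the other ventx copies were not called. sia1.L (siamois), the dorsal homeodomain factor switched on by maternal Wnt signalling, had 1.09, 0.721 and 0.337 TPM in treated+IAA and 2.74, 2.71 and 3.26 TPM in control+IAA libraries of frog 1 (-1.21 ± 0.24 (SE), adjusted p = 0.0091). Frog 2 gave 0.261, 0.497 and 0.834 TPM in treated+IAA and 1.2, 1.44 and 1.2 TPM in control+IAA libraries, again without overlap but not called (-0.59 ± 0.18, adjusted p = 0.86). The ventral repressors ventx2.1.S and ventx2.2.S lie within 25.2 kb on chromosome 7S and changed by -0.71 and -0.82 in frog 1. ventx2.1.S had 0.153, 0.300 and 0.122 TPM in treated+IAA and 0.737, 1.33 and 0.634 TPM in control+IAA libraries of frog 2, which did not overlap (-0.66 ± 0.18, adjusted p = 0.53). not.S, a homeobox gene of the organizer and notochord (chromosome 1S, 2837785 to 2840015), had 0.134, 0.236 and 0.165 TPM in treated+IAA, 1.23, 1.77 and 1.37 TPM in control+IAA and 1.91, 2.21 and 2.29 TPM in wild-type libraries of frog 1. Treated+IAA embryos were thus below both (-1.05 ± 0.16 (SE), adjusted p = 2.9e-04). In frog 2, not.S had 0.0423, 0.485 and 0.316 TPM in treated+IAA and 1.37, 1.60 and 0.0833 TPM in control+IAA libraries, the low control being library 2.3. Its change was -0.57 with that library (adjusted p = 0.93) and -0.97 ± 0.20 without it (adjusted p = 0.037, limma). Library 2.3 was set apart partly by low values of such genes, so the call without it is a description.

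Some ectodermal genes were called lower in frog 1, while foxi1.S (-0.23) and grhl1.S (0.13) were not called. foxi4.2.L and foxi4.2.S, forkhead factors of the animal cap, changed by -1.30 and -1.01, and foxi1.L by -0.88. foxi4.2.L had 0.580, 0.383 and 1.35 TPM in treated+IAA and 3.09, 3.29 and 3.33 TPM in control+IAA libraries, without overlap. Frog 2 had 0.0515, 0.423 and 0.0502 TPM in treated+IAA and 1.16, 1.05 and 0.180 TPM in control+IAA libraries. foxi4.2.L was not called with library 2.3 (adjusted p = 0.86) and was called without it (adjusted p = 0.037, limma). That call is a description, since the low control is library 2.3. The homeolog foxi4.2.S went the other way in frog 2, by 0.21 with library 2.3 and by 0.16 without it, and was not called. gs17.L, an early zygotic transcript, had the most negative change among the protein-coding genes called lower in frog 1: 2.12, 0 and 0.719 TPM in treated+IAA against 5.31, 5.86 and 7.04 TPM in control+IAA libraries, with wild type at 1.25, 4.00 and 3.21 TPM (-2.01 ± 0.26 (SE), adjusted p = 2.1e-05). Its levels in frog 2 were 0.625, 1.28 and 0.929 TPM in treated+IAA and 1.72, 2.64 and 1.23 TPM in control+IAA libraries, which overlapped. Both copies of gadd45g, a stress- and growth-arrest-associated gene, were called lower in frog 1 (-1.41 for L and -1.26 for S). So were klf17.1.S, a Krüppel-like factor (-1.18), id3.L, an inhibitor of bHLH factors (-0.75), and h2bc11.S, a core histone H2B gene (-1.52). None of these was called in frog 2, where gadd45g.L changed by 0.04, gadd45g.S by 0.24, klf17.1.S by 0.19, id3.L by -0.09 and h2bc11.S by -0.20. In 6 cases both homeologs of a gene were called in frog 1: bix1.3, foxi4.2, gadd45g, mix1, sox17b.1 and vegt.

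Class V POU factors and SoxB1 factors, some of them maternal activators of the zygotic genome, had 1 call, for a gene that rises in wild type. Among their tested copies (the pou5f3 genes, sox2 and sox3), pou5f3.2.S was called in frog 1, with 2.22, 2.46 and 2.21 TPM in treated+IAA and 4.64, 3.98 and 4.22 TPM in control+IAA libraries (-0.68 ± 0.15 (SE), adjusted p = 0.026). In frog 2 it had 2.45, 2.66 and 2.56 TPM in treated+IAA and 3.79, 3.5 and 2.63 TPM in control+IAA libraries, which overlapped (-0.26 ± 0.13, adjusted p = 0.93, not called). Its more abundant homeolog pou5f3.2.L averaged 17.7 TPM in treated+IAA and 23.0 TPM in control+IAA libraries of frog 1, without overlap. That copy was not called (-0.36, limma adjusted p = 0.24), stood at -0.19 after median-ratio scaling and changed by 0.07 in frog 2. The abundant maternal copies pou5f3.3.L and sox3.L changed by -0.29 and -0.25 in frog 1, where the median of all genes was -0.14, and by 0.03 and 0.06 in frog 2. After median-ratio scaling they stood at -0.11 and -0.07 in frog 1. cxxc1.S, a subunit of the SET1 complex, changed by -0.22 in frog 1 and 0.11 in frog 2 and was not called.

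**Figure D3:**
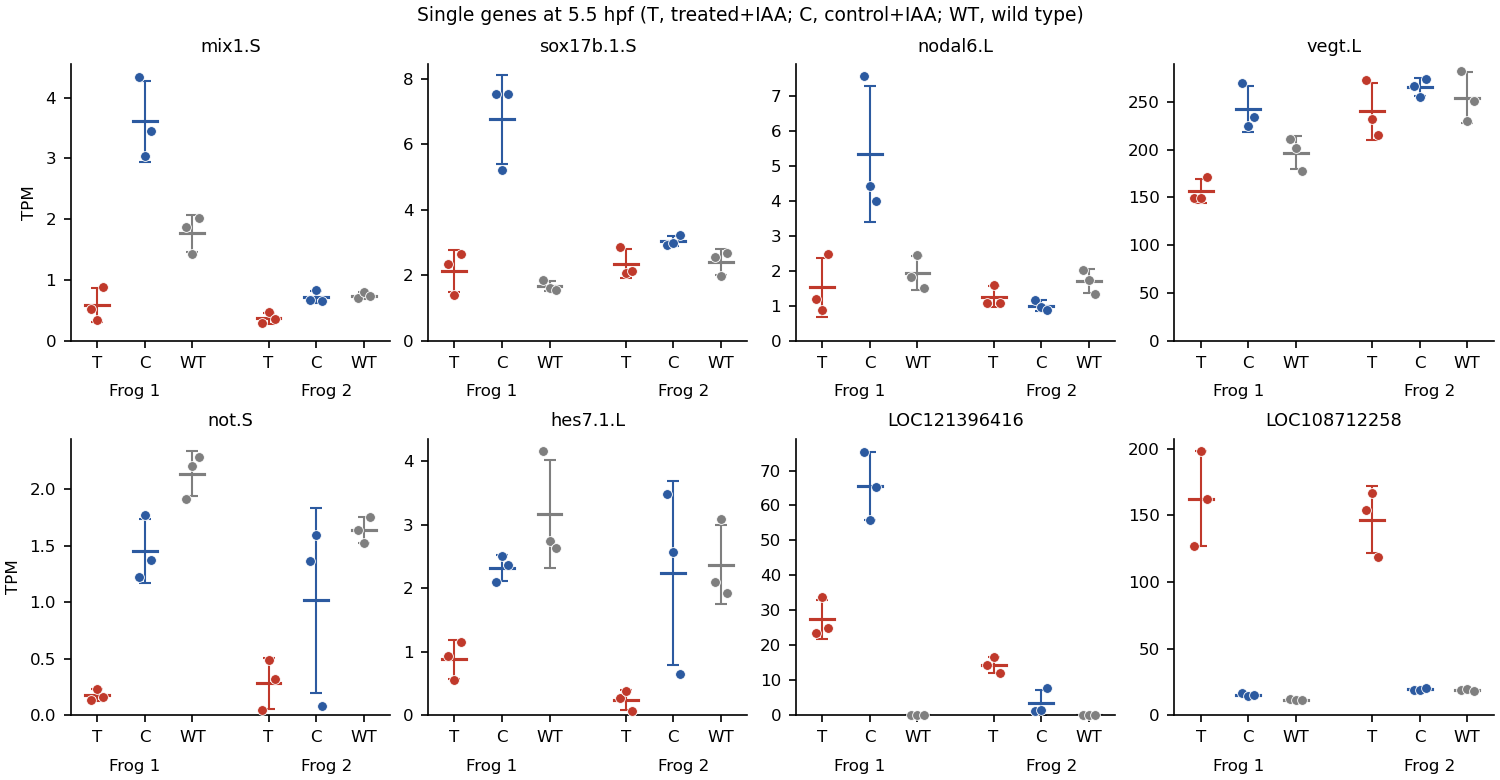
TPM of 8 genes in each library at 5.5 hpf for treated+IAA (T), control+IAA (C) and wild type (WT), frog 1 on the left and frog 2 on the right of each panel; points are pools, bars mean and SD (n = 3). For mix1.S, sox17b.1.S and nodal6.L the control+IAA pools of frog 1 lie above the treated+IAA and wild-type pools of that frog, and LOC108712258 is high in the treated+IAA pools of both frogs, 127, 198 and 162 TPM in frog 1 and 154, 167 and 119 TPM in frog 2.

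Maternally supplied transcripts were among the lower genes of frog 1 too. vegt.L and vegt.S, the T-box endoderm determinant stored in the vegetal cortex, had 149.9, 149.6 and 171 TPM and 107, 98.2 and 109 TPM in treated+IAA, against 269, 224 and 234 TPM and 171, 139 and 155 TPM in control+IAA libraries. For vegt.L the change was -0.62 ± 0.13 (SE), adjusted p = 0.015, and wild type, at 211, 201 and 177 TPM, lay between the groups. In frog 2 vegt.L had 273, 232 and 215 TPM in treated+IAA and 266, 255 and 274 TPM in control+IAA libraries, which overlapped (-0.15). grip2.L, a germ plasm scaffold of the vegetal pole, changed by -0.70 ± 0.16 (SE), adjusted p = 0.038. Other genes called lower were sesn2.L, a stress-inducible sestrin (-0.46), pgam1.S, a glycolytic enzyme (-0.48), cab39.L, a scaffold of the LKB1 kinase (-0.42), and snai1.S, a Snail-family repressor that belongs to the genes rising in wild type (-0.68). In frog 2 none of these was called, and pgam1.S and snai1.S changed by -0.14 and -0.08. After median-ratio scaling in frog 1, vegt.L stood at -0.45 (adjusted p = 0.067) and grip2.L at -0.53 (adjusted p = 0.074, limma).

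For 10 of the 80 genes the wild-type mean was below 10% of the control+IAA mean, with all control+IAA above all wild-type libraries. They were foxi1.L, mixer.L, mab21l2.S, mafb.L, aplnr.S (the apelin receptor), the lncRNAs LOC121396416 and LOC121403075, LOC121397294, LOC121393800 and trnam-cau. LOC121396416 (chromosome 7S, 57736231 to 57760994), chosen after its values were seen, was listed at 0 in all 3 wild-type libraries of frog 1 and had 23.4, 33.9 and 24.9 TPM in treated+IAA and 75.4, 56.0 and 65.2 TPM in control+IAA libraries (-1.24 ± 0.29 (SE), adjusted p = 0.042). In frog 2 the order was turned round, with 14.5, 16.5 and 12.1 TPM in treated+IAA and 1.17, 1.40 and 7.86 TPM in control+IAA libraries, and the highest control was library 2.3. The change there was 2.09 (adjusted p = 0.12) with that library and 2.74 (adjusted p = 8.3e-04) without it. mab21l2.S likewise had 2.01, 1.60 and 1.76 TPM in treated+IAA and 3.70, 3.51 and 3.99 TPM in control+IAA libraries of frog 1, and 1.03, 1.19 and 1.26 TPM in treated+IAA and 0, 0.483 and 0.625 TPM in control+IAA libraries of frog 2. Not all 10 were higher in treated+IAA embryos of frog 2: foxi1.L changed by -0.04 and LOC121403075 by -0.13 there. In frog 2 the control+IAA libraries with little hbg1.L were also low in LOC121396416. In frog 1 the order was opposite: treated+IAA libraries held more hbg1.L, 14739 to 24220 TPM against 7594 to 13695 TPM in control+IAA, and less LOC121396416. The part of injected RNA amount in these values was not tested.

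Non-coding transcripts made up the remainder. Neighbouring lncRNA genes on chromosome 1L (231574620 to 231635859) were all lower in frog 1, LOC108719063 changing by -1.12, LOC121396065 by -1.12 and LOC121396092 by -1.01. LOC121396065 had 35.1, 29.7 and 53.9 TPM in treated+IAA and 80.4, 84.8 and 89.2 TPM in control+IAA libraries. Its frog 2 levels were 28.2, 35.7 and 43.2 TPM in treated+IAA and 73.5, 74.0 and 36.4 TPM in control+IAA libraries, and without library 2.3 it changed by -1.05 (adjusted p = 0.11, limma). LOC108719063 changed by -1.14 without library 2.3 and was then called (adjusted p = 0.015, limma), a call that is likewise a description. Of the 8 lncRNAs called lower in frog 1, LOC121403075 (-1.29) and LOC121399273 (-1.29) had the most negative changes. The 8 tRNA names, each a sum over several loci, ranged in their control+IAA means from 6.18 TPM for trnam-cau to 252 TPM for trnar-ucg, and several were at 0 in treated+IAA libraries: trnaq-uug was listed at 0, 0 and 6.66 TPM in treated+IAA and 37.3, 61.1 and 58.1 TPM in control+IAA libraries, and trnal-aag, trnas-cga and trnam-cau were listed at 0 in all treated+IAA libraries, so no fold is given. For all 8 names the wild-type mean of frog 1 lay below the control+IAA mean. It was 11.5 TPM for trnaq-uug, 1.64 TPM for trnal-aag, 2.21 TPM for trnas-cga and 0 TPM for trnam-cau. trnar-ucg, the most abundant of the 8, had 86.9, 13.2 and 99.9 TPM in treated+IAA and 244, 231 and 281 TPM in control+IAA libraries of frog 1, with a wild-type mean of 82.3 TPM (-2.33 ± 0.41 (SE), adjusted p = 0.0023). In frog 2 it had 6.79, 8.49 and 10.6 TPM in treated+IAA and 34.3, 27.2 and 13.3 TPM in control+IAA libraries, without overlap and not called (-1.35 ± 0.57, adjusted p = 0.93). Over all 49 tested tRNA names the median change was -1.91 in frog 1 and -0.06 in frog 2.

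Higher genes were few. LOC108712258 (chromosome 3S, 6252828 to 6304837), a protein-coding gene without a given name, was the single gene called in the same direction in both frogs (0.00511% of the 19581 genes tested in both). With earlier results known, it had been listed beside hbg1.L and h3-5.L among the transcripts that report injection. Whether its reads come from injected or endogenous RNA was not tested. It had 127, 198 and 162 TPM in treated+IAA, 16.9, 14.4 and 15.2 TPM in control+IAA and 12.3, 11.5 and 11.7 TPM in wild-type libraries of frog 1 (3.29 ± 0.23 (SE), adjusted p = 2.2e-11). In frog 2 it had 154, 167 and 119 TPM in treated+IAA, 19.1, 18.6 and 20.3 TPM in control+IAA and 19.2, 20.0 and 18.5 TPM in wild-type libraries (2.84 ± 0.19 (SE), adjusted p = 4.4e-12). Treated-IAA libraries were high too, at 69.4, 198 and 125 TPM in frog 1 and 132, 141 and 175 TPM in frog 2. Control-IAA libraries, injected as well, lay near wild type, at 10.0, 11.6 and 11.9 TPM in frog 1 and 16.9, 17.6 and 20.0 TPM in frog 2. LOC108712258 was thus far lower in control-injected than in treated embryos, although hbg1.L was abundant in both. In frog 1 all control+IAA libraries still lay above all wild-type libraries for LOC108712258. The part of injected mRNA in its levels was not tested. Within the treated+IAA group of each frog the pools had the same order for LOC108712258 and for hbg1.L, as did the treated-IAA pools of frog 1 but not those of frog 2. h3-5.L, a histone gene of the H3.3 list, was called higher in frog 2, with 839.8, 945 and 752 TPM in treated+IAA, 167, 168 and 558 TPM in control+IAA and 89.5, 93.9 and 84.0 TPM in wild-type libraries (1.75 ± 0.32 (SE), adjusted p = 0.028). In frog 1 it had 206, 327 and 289.8 TPM in treated+IAA and 398, 313 and 250.3 TPM in control+IAA libraries, which overlapped (-0.22), again above the 54.7, 52.6 and 44.7 TPM of wild type. Since H3.3 mRNA was injected in both groups, endogenous and injected transcripts cannot be told apart for this gene. The other H3.3 genes, h3-3b.L and h3-3b.S, changed by -0.21 and -0.19 in frog 1 and by 0.01 and 0.06 in frog 2. LOC121399584, a guide RNA gene, was listed at 4.67, 24.7 and 5.6 TPM in treated+IAA libraries of frog 1 and at 0 in its control+IAA libraries and in all 6 libraries of frog 2. trnal-cag was listed at 16.9, 4.81 and 16.9 TPM in treated+IAA libraries of frog 2 and at 0 in its control+IAA libraries, while in frog 1 it had 7.52, 14.3 and 23.5 TPM in treated+IAA and 13.0, 46.3 and 62.7 TPM in control+IAA libraries.

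Without control+IAA library 2.3, the 11 genes lower in frog 2 were hes7.1.L, not.S, foxi4.2.L, rasd1.L, rasd1.S, h2ac7.L, ppp1r14b.L, LOC108695555, LOC108719063, XB5904899.L and trnaq-cug, and not.S, foxi4.2.L, rasd1.S and LOC108719063 were also among the 80 of frog 1. These names were chosen after the values were seen. Library 2.3 was set apart partly by its low values of such genes. Calls made without it follow partly from that choice and are descriptions. hes7.1.L, a Hairy/E(spl)-type repressor (chromosome 3L, 153414972 to 153417163), had 0.263, 0.377 and 0.0702 TPM in treated+IAA and 3.48, 2.57 and 0.648 TPM in control+IAA libraries of frog 2, all controls above all treated. Its change was -1.27 with library 2.3 (adjusted p = 0.39) and -1.70 without it (adjusted p = 0.015, limma). In frog 1 it had 0.934, 0.549 and 1.15 TPM in treated+IAA and 2.09, 2.50 and 2.36 TPM in control+IAA libraries, with wild type higher still at 4.15, 2.74 and 2.63 TPM and no call (-0.83 ± 0.22, adjusted p = 0.087). rasd1.S, a Ras-like small GTPase, had 0.862, 1.01 and 0.776 TPM in treated+IAA and 3.47, 2.27 and 0.204 TPM in control+IAA libraries of frog 2. The 8 genes higher without library 2.3 were hbg1.L, h3-5.L, LOC108712258, trnal-cag, LOC121396416, LOC121401401, qsox1.L, a thiol oxidase, and plk2.L, a polo-like kinase. The control+IAA libraries kept in that fit were those with little hbg1.L. plk2.L, listed at no more than 0.0417 TPM in wild type of frog 2, had 1.72, 1.69 and 1.66 TPM in treated+IAA and 0.114, 0.322 and 1.22 TPM in control+IAA libraries. In frog 1 it had 1.70, 1.88 and 1.82 TPM in treated+IAA and 2.46, 2.74 and 3.67 TPM in control+IAA libraries, the opposite order.

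At an unadjusted p below 0.05, 47 genes were lower in both frogs (0.24% of the 19581 tested in both), 12 were higher in both (0.0613%) and 63 went opposite ways. Of the genes that also had no overlap between groups and a mean of at least 1 TPM in both frogs, 11 were lower and 5 higher. The 6 lowest by mean change were trnar-ucg, hes7.1.L, LOC108703460, LOC108695555, XB5904899.L and LOC108704257. LOC108695555 (chromosome 6S, 1720455 to 1722738), which rises in wild type, had 1.16, 0.837 and 2.08 TPM in treated+IAA and 2.80, 2.55 and 3.84 TPM in control+IAA libraries of frog 1 (-0.81 ± 0.20, adjusted p = 0.053). In frog 2 it had 0.993, 1.06 and 0.850 TPM in treated+IAA and 2.97, 2.94 and 1.11 TPM in control+IAA libraries (-0.71 ± 0.17, adjusted p = 0.34). Both frogs thus gave changes of like size for this gene and neither passed the limma threshold. The higher genes included LOC108712258 (listed as injection-related, though near wild type in control embryos), LOC121401045, ndufs4.S (a subunit of respiratory complex I) and nipal3.S.

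All 80 genes lower in frog 1 were tested in frog 2, where 55 (68.8%) had a change below 0, against 24.8% of all genes tested, and none was called. Their median change in frog 2 was -0.09, against 0.06 for all genes, and without library 2.3 it was -0.09, against 0.07. Treated+IAA lay below control+IAA without overlap for 11 of them and above for 6, against 1.58% and 8.81% of all genes tested in frog 2. Of the 1010 genes that rise in wild type, 49.4% had a change below 0 in frog 2, with a median of 0. For these rising genes treated+IAA lay below without overlap for 6.83% and above for 3.17%. The difference of the window effect between frogs, tested in one limma fit, was called for 79 of 19581 genes, 78 more negative in frog 1 (0.398%) and 1 more positive (0.00511%). Of the 80 genes, 25 were among them. The 80 were chosen by a low change in the same frog 1 libraries, which favours such calls, so this count is a description. The 78 included 70 of the genes that rise in wild type, a class of 1010 among the 19581 genes tested. The median of this difference over all genes was -0.21, and after median-ratio scaling 24 genes were more negative and 2 more positive in frog 1. Leaving out single libraries gave 23 to 76 genes, and 38 without control+IAA library 2.3. The frogs have separate tables with unlike ribosomal RNA shares, and frog and table cannot be told apart.

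**Figure D4:**
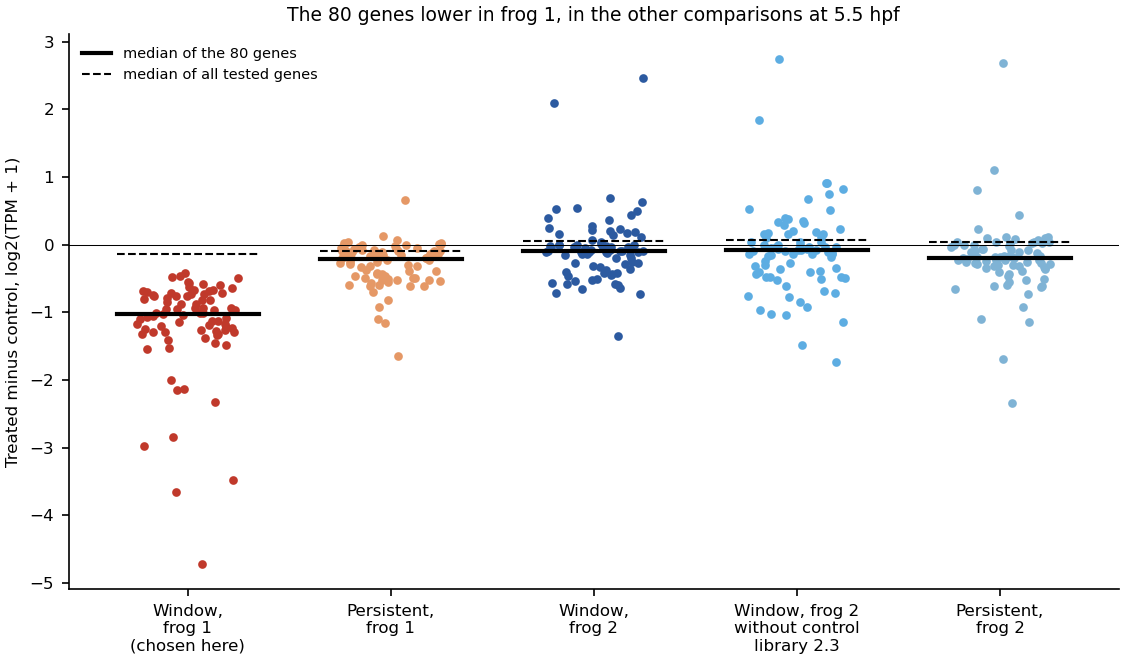
Change of the 80 genes that were lower in frog 1 (y axis, treated minus control, log2(TPM + 1)) in 5 comparisons at 5.5 hpf (x axis); points are genes, solid bars their median and dashed bars the median of all tested genes. The first column chose the genes, with median -1.02; the medians are -0.20 and -0.19 in the persistent comparison of frogs 1 and 2, and -0.09 in the window comparison of frog 2, with or without control library 2.3.

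In embryos of the same frogs given no auxin, the persistent depletion at 5.5 hpf called 1 gene lower (rasl11b.L, 0.00479%) and 2 higher (0.00957%) in frog 1. In frog 2 it called 2 genes in each direction (0.00986% each). It shares no library with the window comparison. Of the 80 genes, 87.5% had a change below 0 there in frog 1, against 74.9% of all genes, with a median of -0.20 against -0.10. In frog 2, 72.5% were below 0, against 34.6% of all genes, with a median of -0.19 against 0.03. Of the genes that rise in wild type, 55.2% were below 0 in frog 1 and 53.8% in frog 2. gs17.L, lower under window depletion in frog 1, was called lower under persistent depletion in frog 2 (-1.68, adjusted p = 3.3e-05, limma) but changed by -0.15 under persistent depletion in frog 1. The window effect minus the persistent effect was called for no gene in either frog by limma, with 689 genes in frog 1 and 428 in frog 2 at an unadjusted p below 0.05. With a pseudocount of 0.1 the counts were 11 and 1. How far window and persistent embryos differed in injected protein and in H3K4me3 at 5.5 hpf was not tested. The lack of calls is thus no measure of what ending the depletion does. Auxin was compared in control embryos, whose auxin-treated libraries are the ones used above: control+IAA against control-IAA called 8085 genes higher (38.7%) and 46 lower (0.22%) in frog 1 and none in frog 2 (1188 at an unadjusted p below 0.05). After rescaling without ribosomal RNA, frog 1 gave 120 higher and 19 lower, and without control+IAA library 1.1 it gave 86 higher and none lower. At 6.5 hpf, the window effect differed from that at 5.5 hpf for 34 genes upward (0.163%) and 1 downward (0.00479%) in frog 1 and for 3 upward (0.0148%) and 40 downward (0.197%) in frog 2. All 40 of those in frog 2 were genes that rise in wild type, a class of 1010 among its 20277 tested genes. In frog 1 the genes whose effect moved upward included the maternal vegt.L and grip2.L, whose window effects at 6.5 hpf were 0.27 and 0.39. Both were named for a low change in the same 5.5 hpf libraries, which favours an upward move, so these values are descriptions. The frog 1 count was 134 without control+IAA library 1.2 and 0 without any one of the other libraries, and that of frog 2 was 20 to 89.

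In frog 1, 19 of 109 tested genes of the early zygotic list (17.4%) were called lower, against 0.383% of all genes tested, and none higher. The median change of the list was -0.18, against -0.14 for all genes. Treated+IAA lay below control+IAA without overlap for 46 of the 109 (42.2%), against 17.1% of all genes tested. The 19 were the copies of mix1, bix1, mixer, nodal5, nodal6, sia1, ventx2, foxi1, gs17, gadd45g, pou5f3.2 and vegt given above; the list holds vegt, although its RNA is also maternally supplied, so both vegt calls are counted here. After median-ratio scaling, 13 early zygotic genes were called lower, among 50 of all genes. In frog 2 no early zygotic gene of 105 was called, with a median of 0 against 0.06 for all genes, and none without library 2.3; treated+IAA lay below control+IAA without overlap for 9 (8.57%) and above for 8 (7.62%), against 1.58% and 8.81% of all genes tested. Germ plasm transcripts, which are maternal and vegetal, had 1 call (grip2.L) among 17 tested in frog 1 (5.88%) and a median of -0.43. There dazl.L averaged 33.8 TPM in treated+IAA and 50.8 TPM in control+IAA libraries, and dnd1.L 139 TPM in treated+IAA and 203 TPM in control+IAA libraries, neither called. Summed over the list, germ plasm transcripts held 788 to 864 TPM in treated+IAA and 1028 to 1266 TPM in control+IAA libraries of frog 1, and 1131 to 1403 TPM in treated+IAA and 1294 to 1364 TPM in control+IAA libraries of frog 2; the part of sampled vegetal RNA in the vegt and grip2.L values was not tested. In frog 2 the germ plasm median was -0.07, and after median-ratio scaling the medians were -0.25 in frog 1 and -0.14 in frog 2. The list of maternal transcripts, which shares dazl.L and velo1.L with the germ plasm list and does not hold vegt or grip2, had no call in 72 tested copies of frog 1 (median -0.17) and 71 of frog 2 (median 0.05). H3K4 methyltransferases and their partners had no call in 32 copies, with medians of -0.19 in frog 1 and 0.11 in frog 2, and H3K4 demethylases none in 10 copies, with medians of -0.15 and 0.06. H3.3 genes and chaperones had none of 11 called in frog 1 and 1 of 12 (h3-5.L) in frog 2, where 0.0148% of all genes tested were called higher. The p53, arrest and apoptosis list had 1 of 37 called lower in frog 1 (sesn2.L, 2.70%, against 0.383% of all genes tested). It had none of 37 in frog 2, where plk2.L was called once library 2.3 was left out. Cell cycle and replication factors of the midblastula (48 copies) and the transcription machinery (36 copies) had no call in either frog.

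**Figure D5:**
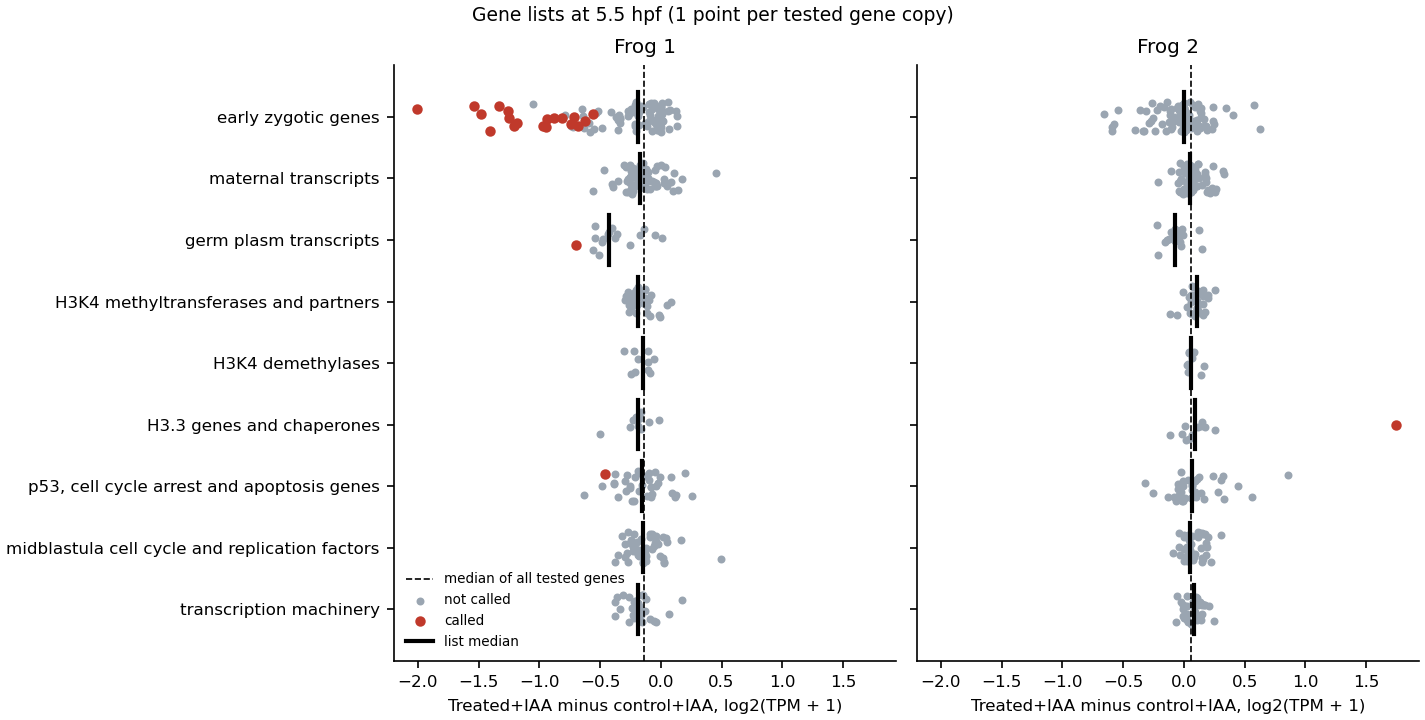
Change of each tested gene copy (x axis, treated+IAA minus control+IAA, log2(TPM + 1)) in 9 gene lists (y axis), frog 1 left and frog 2 right; red points passed the adjusted p threshold, black bars are list medians and the dashed line is the median of all tested genes. In frog 1, 19 of 109 early zygotic genes are called lower (17.4%, against 0.383% of all genes tested) and germ plasm transcripts have a median of -0.43. In frog 2, h3-5.L is the single called member.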

How the data were processed

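RNA from pools of 3 whole embryos was depleted of ribosomal RNA and sequenced from stranded libraries. The authors quantified transcripts with kallisto (v0.48) on the Xenbase v10.1 set and summed isoforms per gene, and the deposited values are TPM, in a table for each frog of 45 libraries. Entries sharing a gene name were summed here, giving 37504 genes in frog 1 and 36504 in frog 2, of which 36790 and 35808 matched RefSeq (Xenopus_laevis_v10.1) for types and positions. TPM keep no depth, so no counting intervals are given. Genes with at least 1 TPM in 3 libraries were tested on log2(TPM + 1) with limma 3.58.1 in R 4.3.3 (15 group means per frog, mean-variance trend, Benjamini-Hochberg, threshold 0.05). The study tested counts with DESeq2, which TPM do not allow. Alternatives were a pseudocount of 0.1, no filter, a mean of at least 5 TPM, median-ratio scaling, rescaling without ribosomal RNA, no trend, a pool-number block, fitting the 6 libraries alone, and leaving out each library. The members and gene lists were chosen with earlier results of these data known.

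Named genes were those called in both frogs, up to 12 lower and 6 higher called genes per frog by size, called list members, up to 6 per direction alike in both frogs at an unadjusted p below 0.05, the largest per gene type, injection-related transcripts and copies of pou5f3, sox2, sox3 and cxxc1. Other names were picked with their values in view. A gene that the rule names is not reported here. Scripts were tested on simulated data.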

Additional observations from a re-analysis of the deposited data

Results flagged for a closer look

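The window effect at 5.5 hpf differed between the frogs, by the test of the difference itself in one limma fit, for 79 genes. Among the named genes the effect in frog 1 minus that in frog 2, on the log2(TPM + 1) scale, was LOC121396416 -3.33, aplnr.S -1.65, bix1.1.L -1.11, bix1.3.S -1.08, foxi4.2.S -1.21, gadd45g.L -1.44, gadd45g.S -1.49, gs17.L -1.46, h3-5.L -1.97, klf17.1.S -1.36, mab21l2.S -1.45, mix1.L -1.20, mix1.S -1.22, mixer.L -1.37, nodal6.L -1.50, plk2.L -1.34, sox17b.1.L -1.40, sox17b.1.S -1.04, tent5a.L -1.48, trnal-aag -3.65, trnal-cag -4.86, trnam-cau -2.84, trnaq-uug -7.19 and trnas-cga -3.43. Values of tRNA names with libraries at 0 are fitted differences and no bounds. Naming genes by a low change in frog 1 favours a negative difference, so the values of such genes are descriptions.

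The window effect at 6.5 hpf differed from that at 5.5 hpf for 35 genes in frog 1 and 43 genes in frog 2, by a limma contrast of the effects. Among the named genes the later minus the earlier effect in frog 1 was cab39.L 0.68, grip2.L 1.09, mix1.S 1.31, pgam1.S 0.77, trnas-cga 3.24 and vegt.L 0.90, and in frog 2 it was gdf3.S -1.03, id3.L -1.28, klf17.1.S -1.29 and trnal-cag -4.67. Naming genes by their change at 5.5 hpf favours a later difference of the opposite sign, so the values of such genes are descriptions. Groups of 3 pools are too small for a test of single outlying libraries.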

How the results depend on the processing

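No named gene that was called with or without the alternative changed direction in these alternatives. The counts below are called genes, higher and lower together. With a pseudocount of 0.1, the window effect called 146 genes in frog 1 and 18 in frog 2, the persistent effect 33 and 11, window minus persistent 11 and 1, the change to 6.5 hpf in frog 2 24, auxin in frog 2 2, both frogs alike 6 and the difference between frogs 140. With no filter, the change to 6.5 hpf in frog 1 had 0, the persistent effect in frog 2 8, window minus persistent in frog 2 1 and the difference between frogs 32. At a mean of at least 5 TPM, window minus persistent in frog 1 had 5, and the change to 6.5 hpf 73 in frog 1 and 21 in frog 2. Median-ratio scaling gave 27 for the persistent effect in frog 1, 58 and 69 for the change to 6.5 hpf in frogs 1 and 2, 172 for auxin in frog 1 and 26 for the difference between frogs. Rescaling without ribosomal RNA gave 0 for the change to 6.5 hpf in frog 1, 139 for auxin in frog 1 and 36 for the difference between frogs. Without a trend the change to 6.5 hpf in frog 1 had 19, and with the 6 libraries alone the window effect had 43 in frog 1 and 7 in frog 2.

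Leaving out 1 library gave 38 to 119 genes for the window effect in frog 1 and 1 to 19 in frog 2, 0 to 1 for window minus persistent in either frog, 0 to 134 and 20 to 89 for the change to 6.5 hpf in frogs 1 and 2, 86 to 9745 and 0 to 5 for auxin, 1 to 5 for both frogs alike and 23 to 76 for the difference between frogs. Values within those ranges were 52 (without treated+IAA 1.1), 51 (control+IAA 1.1) and 45 (control+IAA 1.3) for the window effect in frog 1, 9 (treated+IAA 2.3) for that in frog 2, 4319 (control+IAA 1.3) for auxin in control embryos at 5.5 hpf in frog 1, 22 (treated+IAA 2.1) for the change to 6.5 hpf in frog 2, and 25 (control+IAA 1.1) and 29 (control+IAA 2.2) for the difference between frogs. The cause of these changes was not tested.

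Pool numbers did not pair the samples: same-numbered pools had correlations of 0.02, 0.04 and 0.06 in frog 1 and -0.06 in all 3 pairs of frog 2. A fit with a replicate block for the pool number gave a window effect of 82 genes in frog 1, against 3 in frog 2, and 36 for the difference between frogs.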

Other observations

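Small nuclear RNAs, the spliceosomal RNAs, were shifted in frog 1 without a call. Of the 195 tested snRNA genes that rise in wild type, treated+IAA lay below control+IAA libraries without overlap for 136 in frog 1 (69.7%) and 24 in frog 2 (12.3%), against 17.1% and 1.58% of all genes tested, with median changes of -0.39 and -0.18. Over all tested snRNA genes, 295 in frog 1 and 304 in frog 2, the counts were 137 and 24 and the medians -0.26 and 0. At an unadjusted limma p below 0.05, 95 of the 195 were lower in frog 1, against 13.5% of all genes tested. After median-ratio scaling 39 were lower, against 991 of 20664 genes. How the authors' pseudoalignment divided reads among snRNA copies was not tested, so these counts are descriptions and the copies no independent members. Genes that fall in wild type, 500 in number, had a median change of 0.09 in frog 1, where that of all genes was -0.14. In frog 2 their median was 0.08, where that of all genes was 0.06. Limma called none of them, and at an unadjusted p below 0.05 frog 1 had 51 higher and 4 lower, frog 2 18 higher and 10 lower. Of all genes tested, 0.948% were higher and 13.5% lower in frog 1, and 3.58% and 1.02% in frog 2. The count of higher falling genes in frog 2 thus lay near the share of all genes. After median-ratio scaling frog 1 had 176 of the falling genes higher against 0 lower, and frog 2 had 4 higher against 13 lower. Over all genes these counts were 1208 higher and 991 lower of 20664 in frog 1, and 426 and 522 of 20080 in frog 2. After rescaling without ribosomal RNA frog 1 had 122 of the falling genes higher and 1 lower, against 534 and 1215 of 20868 genes. Under these scalings limma called 1 and 3 falling genes higher in frog 1, among 11 and 7 of all genes.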
